A study of Mus musculus with 6 samples.

Results

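The G2/M and chromosome segregation genes are 50 genes whose products act as a cell enters mitosis, condenses its chromosomes, attaches them to the spindle, separates them and divides. They were listed by name as mitosis, kinetochore, spindle and condensin genes, with earlier results of these data known. No threshold on a measured value entered the list. All 50 were found among the 55335 genes of the deposited count table. All 50 also passed the expression filter, which left 11074 genes for testing.

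The RNA came from CD4 T cells of the mouse colon lamina propria, the connective tissue beneath the gut epithelium. Naive CD4 T cells from the spleens of TcfGFP mice, which carry a GFP reporter of the Tcf7 locus, had been given to Rag1 KO hosts, which make no T or B cells of their own, and the hosts developed colitis. GFP-positive cells, labelled TCF7+ and stem-like, were compared with GFP-negative cells, labelled TCF7- and effector, with 3 libraries in each gate. The labels give both gates the same donor and host genotypes, and neither the age of the mice nor the day of collection. Whether each replicate was a mouse of its own is not stated. The p-values below therefore describe the variation among these libraries, some of which may be technical.

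Dividing cells make most mRNAs of this group in a wave that begins in S phase and peaks in G2 and mitosis, and resting T cells hold little of them. The kinase CDK1 with its B-type cyclins starts mitosis, condensin and topoisomerase II shape the chromosomes, and kinetochores join them to spindle microtubules. The spindle checkpoint holds the anaphase-promoting complex back until every kinetochore is attached, after which securin and cyclin B are destroyed and cytokinesis follows. In T cells these mRNAs are used as a reading of how many cells of a population are cycling. In bulk RNA, fewer cells in cycle and less of the mRNA in each cycling cell cannot be told apart.

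The libraries held 4408385 to 7462076 counts in GFP-positive cells and 4309500 to 5183794 counts in GFP-negative cells. Tcf7, the gene of the sorting reporter, averaged 187 ± 48.4 CPM (counts scaled to a common library total) in the GFP-positive and 111 ± 35.7 CPM in the GFP-negative gate (SD; n = 3 per gate). By replicate it had 237, 183 and 141 CPM in the GFP-positive and 121, 141 and 71.3 CPM in the GFP-negative gate. GFP-positive replicate 3 thus barely exceeded GFP-negative replicate 2, and Tcf7 did not pass the edgeR test over all genes (adjusted p = 0.367). All 12 markers of T cell identity were detected in each library, and Cd4, looked up because it defines the labelled cells, stood at 510 to 643 CPM in the GFP-positive and 593 to 695 CPM in the GFP-negative gate. Those 12 markers held 0.683% of counts in GFP-positive replicate 3 and 0.869% and 0.932% in the others of its gate. In the GFP-negative gate they held 0.861% to 0.935%. GFP-positive replicate 3 stood apart, with 17119 genes detected against 14538 to 15346 in the other libraries. Its 14 myeloid markers, led by Lyz2 and S100a8, held 0.762% of counts, and all 14 were detected there. The same markers held 0.0274% and 0.0326% in the other GFP-positive libraries and 0.0327% to 0.0422% in GFP-negative ones. Epithelial markers (10 genes, led by Krt8 and Cdh1, none at 0) held 0.0388% of its counts and stromal and endothelial markers (11 genes, led by Pecam1 and Dcn, with Cdh5, Kdr and Vwf at 0) 0.04%, against 0.00246% to 0.00727% and 0.00426% to 0.00886% in the other 5 libraries. B and plasma cell markers held 0.00106% to 0.00133% in the GFP-positive and 0.0012% to 0.00715% in the GFP-negative gate. In that list Ighm and Igkc led, and Ms4a1, Igha, Pax5 and Mzb1 were at 0 throughout. Both CD8 markers, Cd8a and Cd8b1, together held 0.00131% to 0.00536% in the GFP-positive and 0.00326% to 0.0123% in the GFP-negative gate. Natural killer and innate lymphoid markers (8 genes, led by Tyrobp and Gata3) held 0.0887% in GFP-positive replicate 3 and 0.0154% and 0.0188% in the other GFP-positive libraries, against 0.017% to 0.033% in the GFP-negative gate. Mast cell and granulocyte markers (7 genes, led by Kit and Cpa3, with Mcpt2 and Ms4a2 at 0 throughout) held 0.00406% in GFP-positive replicate 3, 0.00102% and 0.00108% in the others of its gate and 0.00118% to 0.00282% in the GFP-negative gate. Other cells in cycle carry mitotic mRNAs too, and their part in the values below was not tested. Medians without GFP-positive replicate 3 are given below for the whole group, as a range over its roles, and for some of the other lists.

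The comparison asked how far T cells with an active Tcf7 reporter differ from T cells without it in the mRNAs of cell division. Lower levels in the GFP-positive gate ran through nearly the whole group, from chromosome condensation to cytokinesis, but no single member passed edgeR's test over all genes with the gate as the only term. Of the 50 members, 49 had a negative log2 fold change (GFP-positive minus GFP-negative), where 48.4% of all tested genes did. The median was -1.17 on the log2 scale, against 0.016 over all tested genes, and 35 members stood at -1 or less, where 3.74% of all genes did. The only member with a positive value was Pttg1, which encodes securin. In the edgeR quasi-likelihood test with Benjamini-Hochberg adjustment, 0 of 50 members had an adjusted p below 0.05, where 0.108% of all genes (12 of 11074) passed. Their adjusted p-values in edgeR ran from 0.104 for Ncapg to 0.868 for Cks2. At an unadjusted p below 0.05, 34 members were lower and none was higher, where 5.97% of all genes were lower. For 19 members the 3 GFP-positive libraries all lay below the 3 GFP-negative ones, where 8.8% of all genes did.

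These counts depended on the tool and on single libraries. DESeq2, an alternative to edgeR, passed 12 members at an adjusted p below 0.05, all lower, where 1.28% of its genes passed. They were Mki67, Top2a, Ncapg, Ncaph, Ccnb1, Ccnb2, Cks1b, Mad2l1, Ube2c, Cenpa, Hmmr and Anln. Limma-voom passed 0 members, where 0.163% of its genes passed. With no expression filter edgeR passed 26 members, all lower, where 1.78% of its genes passed. Without GFP-positive replicate 3 the median of the members was -1.27, with 39 lower at an unadjusted p below 0.05 (7.56% of all genes) and 27 below all GFP-negative libraries (15.2% of all genes). The medians of the 9 role groups then ran from -0.98 for the spindle checkpoint to -1.69 for the anaphase-promoting complex and its targets, and Pttg1 was still the only positive member. Single members moved further, with log2 fold changes of -2.12 for Ect2, -2.24 for Ccna2 and -0.51 for Cks2 without that library. Without GFP-negative replicate 1 the median was -1.48, with 41 lower at an unadjusted p below 0.05 (5.63% of all genes) and 46 below both remaining GFP-negative libraries (15.1% of all genes). Without GFP-negative replicate 3 the median was -0.82, with 15 lower at an unadjusted p below 0.05 (3.71% of all genes) and 20 not overlapping (12.1% of all genes). The role medians then ran from -0.56 for the spindle checkpoint to -1.09 for the anaphase-promoting complex and its targets.

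**Figure D1:**
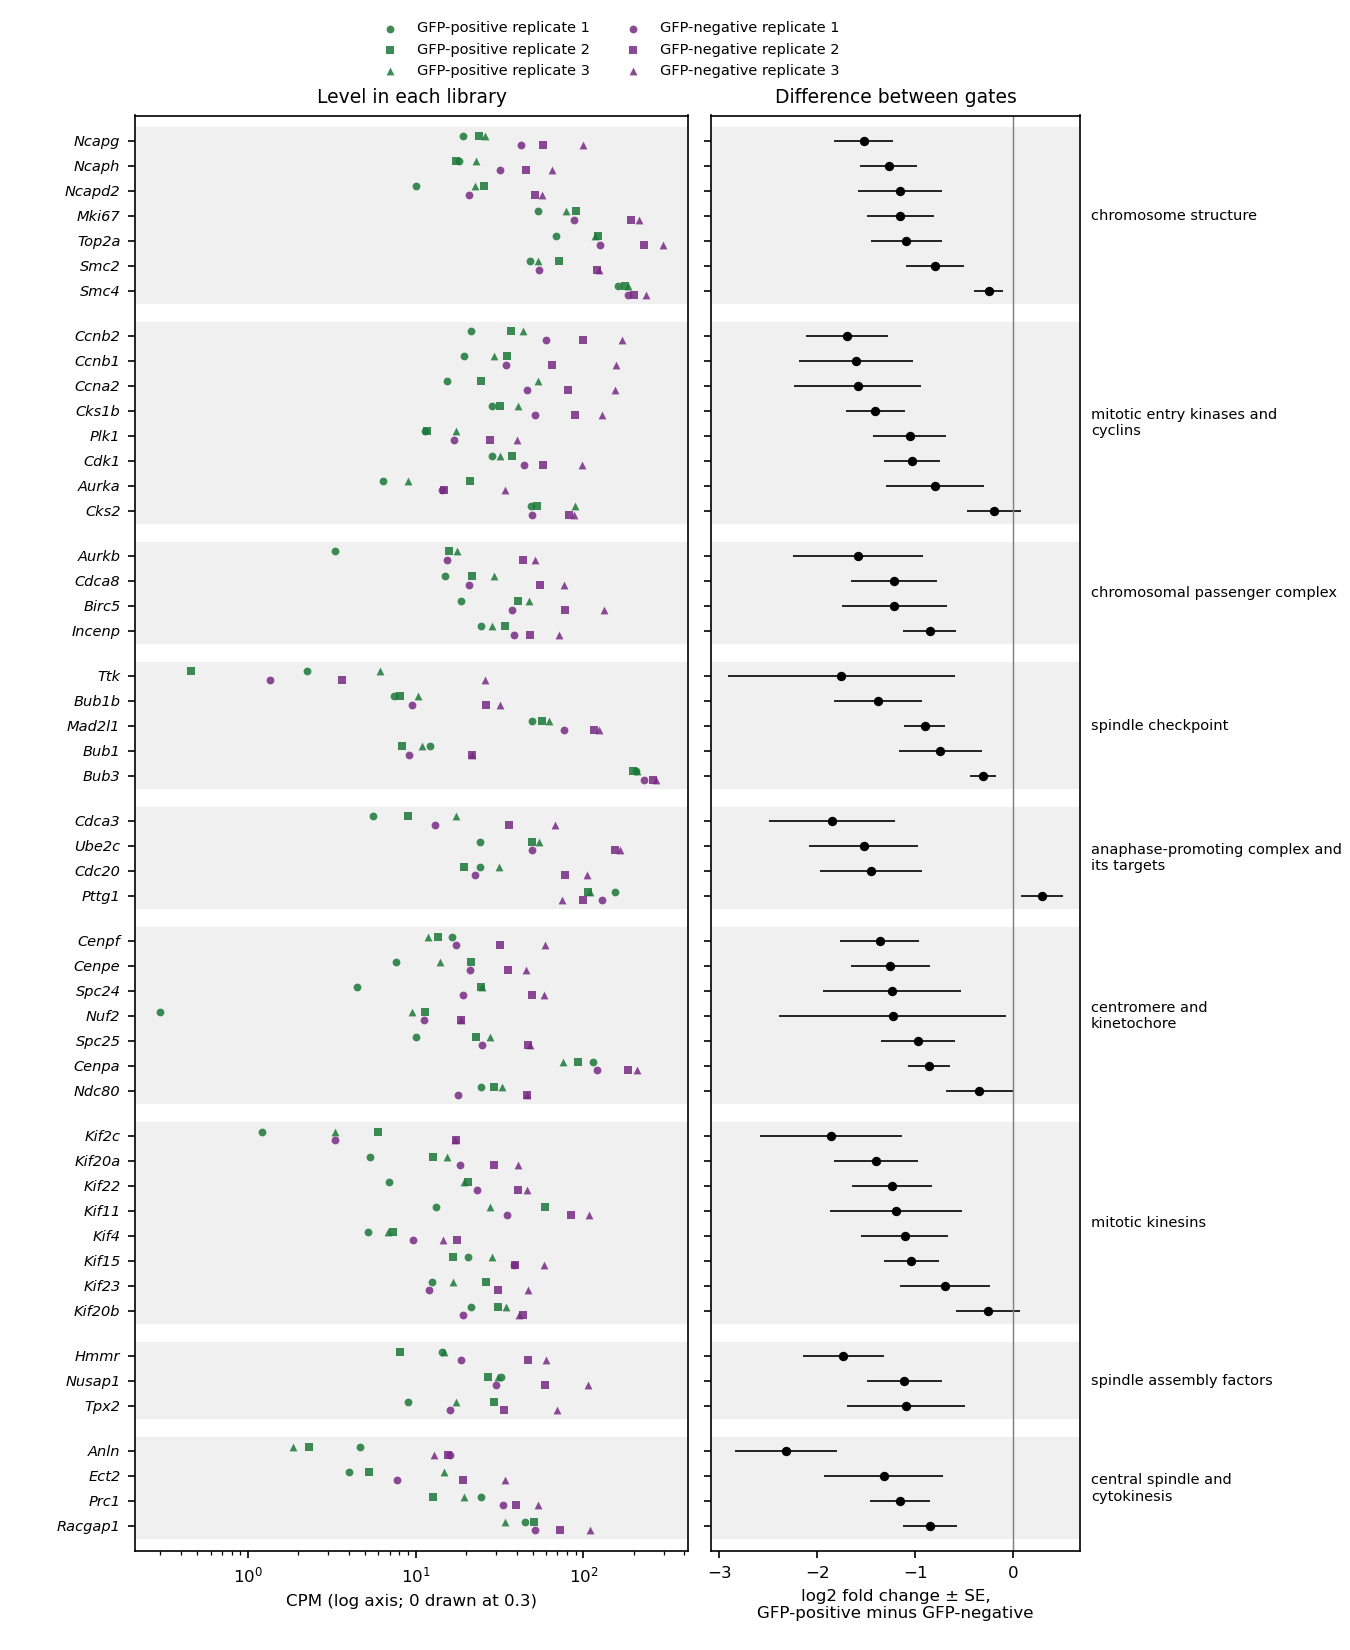
Level of each member in every library (left), in CPM on a log axis, with GFP-positive libraries in green and GFP-negative ones in purple and the members grouped by role. The right panel gives the log2 fold change with its SE, which is negative for all members but Pttg1, and a value of 0 (Nuf2 in GFP-positive replicate 1) is drawn at 0.3 on the left.

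Many mitotic genes share a promoter arrangement, with CCAAT boxes bound by the factor NF-Y upstream of a cell cycle genes homology region (CHR), the site at which DREAM and B-MYB complexes hold the genes off or switch them on. Since the members differed between the gates in the same direction, the RefSeq windows around their start sites (250 bases before and 50 after, build GRCm38.p6) were searched for TTTGAA as the CHR and for CCAAT, both strands, where the motifs can share a base at their ends. An entry was found for 43 members. Promoters of Smc4, Kif20a, Ccna2, Spc24, Aurkb, Tpx2 and Incenp were not used here. The CHR letters were present in 33 of the 43 promoters (76.7%), against 20.2% of 27025 genes with an entry and 14.5% of the 8350 tested genes with an entry. They lay within 50 bases of the start site, a window set after the positions were seen, in 30 of 43 members (69.8%), against 5.72% of all genes with an entry. CCAAT was present in 32 members (74.4%), against 41.1% of all genes with an entry, and 28 members (65.1%) held both motifs, against 7.97%. The median log2 fold change was -1.16 in the 33 promoters with a CHR match and -1.16 in the 10 without, which belong to Birc5, Bub1, Ccnb1, Cenpe, Cks2, Mad2l1, Ncaph, Nuf2, Nusap1 and Pttg1.

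Promoters of 6 members are printed 5′ to 3′ on the strand of the gene, with both motifs in capitals on either strand. Ncapg has the lowest p of the group, Mki67, Cdk1 and Ccnb2 are standard markers of cycling cells with CHR and CCAAT matches, Anln has the lowest fold change, and Pttg1 is the member of opposite sign. The windows are chr5:45669675-45669974 (plus strand) for Ncapg, chr7:135716330-135716629 (minus strand) for Mki67, chr10:69352863-69353162 (minus strand) for Cdk1, chr9:70421505-70421804 (minus strand) for Ccnb2, chr9:22389157-22389456 (minus strand) for Anln and chr11:43425932-43426231 (minus strand) for Pttg1. Mki67, Cdk1 and Ccnb2 each hold 2 CHR and 3 CCAAT matches, Ncapg holds 1 of each, Anln holds 2 CHR matches and no CCAAT, and Pttg1 holds 0 of either in this window. The Pttg1 window lies wholly inside the gene as annotated by GENCODE M21, which begins at chr11:43426251 on the minus strand. Bases before that end were not searched, so whether Pttg1 has the motifs there was not tested.
Ncapg: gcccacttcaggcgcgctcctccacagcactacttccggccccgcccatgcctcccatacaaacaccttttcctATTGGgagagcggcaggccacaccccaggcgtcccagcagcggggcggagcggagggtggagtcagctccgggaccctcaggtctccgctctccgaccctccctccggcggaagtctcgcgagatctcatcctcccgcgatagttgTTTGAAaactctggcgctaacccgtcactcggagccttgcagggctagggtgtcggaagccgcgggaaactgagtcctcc
Mki67: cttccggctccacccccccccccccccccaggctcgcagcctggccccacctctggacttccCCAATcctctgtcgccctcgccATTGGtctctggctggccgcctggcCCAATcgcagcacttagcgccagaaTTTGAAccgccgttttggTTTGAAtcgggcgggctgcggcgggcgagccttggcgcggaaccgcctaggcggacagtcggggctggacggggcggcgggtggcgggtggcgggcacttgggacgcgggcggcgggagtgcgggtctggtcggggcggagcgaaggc
Cdk1: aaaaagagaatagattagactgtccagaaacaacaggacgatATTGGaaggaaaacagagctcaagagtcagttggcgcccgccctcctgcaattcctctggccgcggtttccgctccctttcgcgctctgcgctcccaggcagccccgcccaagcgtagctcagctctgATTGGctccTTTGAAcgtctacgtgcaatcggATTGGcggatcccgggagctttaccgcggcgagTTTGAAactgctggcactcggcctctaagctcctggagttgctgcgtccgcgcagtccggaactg
Ccnb2: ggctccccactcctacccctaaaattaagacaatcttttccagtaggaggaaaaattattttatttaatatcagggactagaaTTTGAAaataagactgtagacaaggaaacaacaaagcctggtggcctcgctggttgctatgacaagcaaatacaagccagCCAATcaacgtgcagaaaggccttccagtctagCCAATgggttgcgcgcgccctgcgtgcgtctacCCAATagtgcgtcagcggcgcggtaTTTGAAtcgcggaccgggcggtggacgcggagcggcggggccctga
Anln: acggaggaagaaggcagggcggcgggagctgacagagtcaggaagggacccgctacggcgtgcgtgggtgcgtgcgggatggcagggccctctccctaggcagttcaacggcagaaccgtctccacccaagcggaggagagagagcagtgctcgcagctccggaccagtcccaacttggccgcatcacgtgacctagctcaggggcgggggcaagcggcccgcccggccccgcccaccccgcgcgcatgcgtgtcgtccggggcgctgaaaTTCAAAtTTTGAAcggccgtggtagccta
Pttg1: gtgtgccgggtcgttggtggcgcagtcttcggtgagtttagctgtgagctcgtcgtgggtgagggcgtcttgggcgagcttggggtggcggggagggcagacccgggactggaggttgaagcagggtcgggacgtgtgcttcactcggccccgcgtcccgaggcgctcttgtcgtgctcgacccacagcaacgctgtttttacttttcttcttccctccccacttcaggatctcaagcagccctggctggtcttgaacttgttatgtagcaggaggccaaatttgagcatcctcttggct

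**Figure D2:**
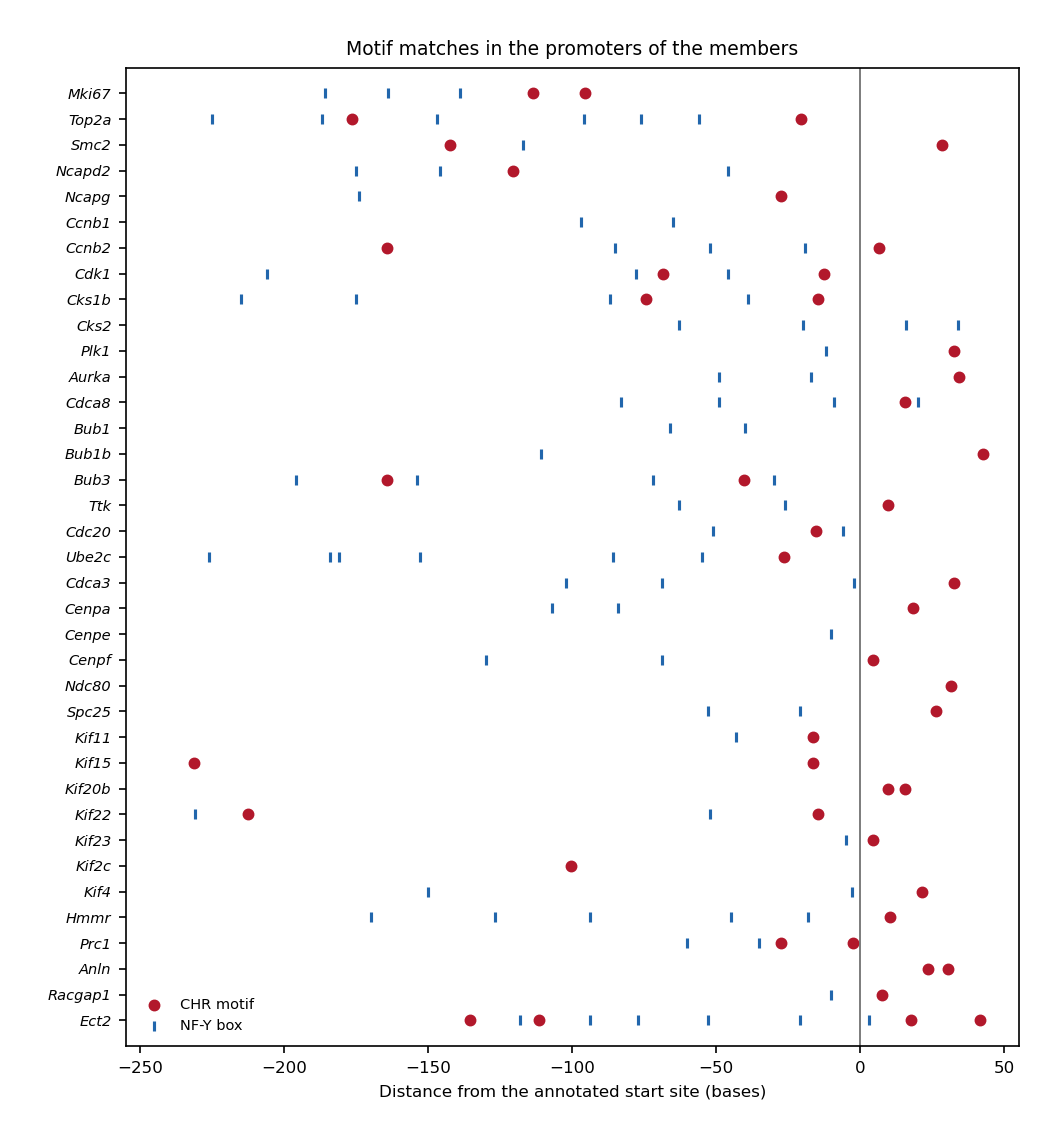
Positions of CHR motif matches (red points) and NF-Y box matches (blue bars) in the promoters of the members with a match, as distance in bases from the annotated start site. Most red points lie within 50 bases of the start site, and most blue bars lie before it.

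Genes of chromosome structure were negative in 7 of 7, with a median log2 fold change of -1.15, and 6 were lower at an unadjusted p below 0.05. Beside the counts of this and the other roles, 5.97% of all tested genes were lower at that edgeR threshold. For 8.8% of all tested genes every GFP-positive library lay below every GFP-negative one. Ncapg, which encodes a non-SMC subunit of condensin I, had 19.2, 23.9 and 25.8 CPM in GFP-positive replicates 1 to 3, against 42.3, 57.5 and 99.1 CPM in GFP-negative replicates 1 to 3. Every GFP-positive library lay below every GFP-negative one, and the log2 fold change was -1.53 ± 0.30 (SE; edgeR adjusted p = 0.104). Ncaph, which encodes the kleisin subunit that closes the condensin I ring, had 18.2, 17.5 and 22.9 CPM in the GFP-positive and 32, 45.5 and 64.5 CPM in the GFP-negative gate, again with no overlap (log2 fold change -1.27 ± 0.29; edgeR adjusted p = 0.125). Mki67, whose product Ki-67 coats mitotic chromosomes, had 53.7, 89.7 and 78.3 CPM in the GFP-positive and 88.2, 191 and 213 CPM in the GFP-negative gate. GFP-negative replicate 1 lay within the range of the GFP-positive libraries for Mki67. Top2a, the topoisomerase that untangles sister chromatids, had 68.2, 122 and 117 CPM in the GFP-positive and 125, 231 and 298 CPM in the GFP-negative gate, so that GFP-negative replicate 1 lay just above the highest GFP-positive library. The condensin ATPase genes were less uniform. Smc2 had a log2 fold change of -0.80 ± 0.30, Smc4 had -0.25 ± 0.15, and the remaining condensin I subunit gene Ncapd2 had -1.16 ± 0.43.

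Genes that start mitosis had a median log2 fold change of -1.23. All 8 were negative, 5 were lower at an unadjusted p below 0.05 and 3 did not overlap. Ccnb2, a B-type cyclin, had 21.5, 36.8 and 43.5 CPM in the GFP-positive and 60.1, 99.4 and 170 CPM in the GFP-negative gate (log2 fold change -1.70 ± 0.42; edgeR adjusted p = 0.218). Cks1b, a small subunit of cyclin-dependent kinases, had 28.7, 32 and 41.0 CPM in the GFP-positive and 51.6, 89.6 and 129 CPM in the GFP-negative gate (log2 fold change -1.41 ± 0.30; edgeR adjusted p = 0.118). Cdk1, the mitotic kinase itself, had 28.7, 37.5 and 31.6 CPM in the GFP-positive and 44.4, 57.5 and 97.8 CPM in the GFP-negative gate (log2 fold change -1.03 ± 0.28; edgeR adjusted p = 0.209). None of these 3 genes overlapped between the gates. Ccnb1, the other B-type cyclin of the group, had 19.4, 35.2 and 29.4 CPM in the GFP-positive and 34.5, 64.8 and 156 CPM in the GFP-negative gate, with GFP-negative replicate 1 inside the GFP-positive range and GFP-negative replicate 3 far above the rest. Plk1, the kinase that drives centrosome maturation and mitotic entry, had 11.4, 11.7 and 17.4 CPM in the GFP-positive and 16.9, 27.7 and 40.1 CPM in the GFP-negative gate, with GFP-positive replicate 3 just above GFP-negative replicate 1. Ccna2, which encodes cyclin A2, had a log2 fold change of -1.59 ± 0.65, which was -1.02 without GFP-negative replicate 3. Aurka, a kinase of the spindle poles, had -0.80 ± 0.50, which moved to -1.45 when GFP-positive replicate 2 was left out and to -0.26 when GFP-negative replicate 3 was. Cks2, the close relative of Cks1b, had a log2 fold change of only -0.19 ± 0.28 with widely overlapping groups, so that the CKS genes had unequal fold changes; the difference between them was not tested.

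The chromosomal passenger complex corrects faulty attachments and later guides cytokinesis. All 4 of its genes were negative, with a median of -1.22, and 3 were lower at an unadjusted p below 0.05. Incenp, its scaffold, had 24.4, 34.3 and 28.7 CPM in the GFP-positive and 38.6, 48.0 and 71.0 CPM in the GFP-negative gate, and was the member of the complex whose gates did not overlap (log2 fold change -0.85 ± 0.27; edgeR adjusted p = 0.267). Aurkb, its kinase, had 3.29, 15.9 and 17.6 CPM in the GFP-positive and 15.3, 43.7 and 51.3 CPM in the GFP-negative gate. Birc5, which encodes survivin, had 18.7, 40.7 and 47.2 CPM in the GFP-positive and 37.4, 77.5 and 133 CPM in the GFP-negative gate. Cdca8, which encodes borealin, had 14.9, 21.6 and 29.1 CPM in the GFP-positive and 20.9, 55.3 and 76.8 CPM in the GFP-negative gate. For these 3 genes GFP-negative replicate 1 lay among the GFP-positive libraries, and GFP-negative replicates 2 and 3 lay above all of them.

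Spindle checkpoint genes had the median nearest to 0 of the role groups, -0.90, with all 5 negative and 3 lower at an unadjusted p below 0.05. Mad2l1, which encodes the checkpoint effector MAD2, had 49.2, 57.0 and 62.2 CPM in the GFP-positive and 76.6, 115 and 124 CPM in the GFP-negative gate (log2 fold change -0.90 ± 0.21; edgeR adjusted p = 0.125). Bub3, which brings BUB proteins to kinetochores and also acts outside mitosis, had 207, 197 and 209 CPM in the GFP-positive and 231, 258 and 269 CPM in the GFP-negative gate. Both genes had no overlap between the gates, although the log2 fold change of Bub3 was only -0.31 ± 0.13 (edgeR adjusted p = 0.459). Bub1b, which encodes the checkpoint protein BUBR1, had 7.45, 8.05 and 10.3 CPM in the GFP-positive and 9.50, 26.1 and 32 CPM in the GFP-negative gate. Bub1, a checkpoint kinase, had 12.1, 8.28 and 10.9 CPM in the GFP-positive and 9.11, 21.8 and 21.7 CPM in the GFP-negative gate. In both, GFP-negative replicate 1 stood at the GFP-positive level. Ttk, the kinase that starts checkpoint signalling, spread most of all members, from 0.46 to 6.17 CPM in the GFP-positive and from 1.36 to 25.9 CPM in the GFP-negative gate, and its log2 fold change of -1.75 carried an SE of 1.16. That direction rested on 1 library, since the value was 0.27 without GFP-negative replicate 3, and it was -2.85 without GFP-positive replicate 3.

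The anaphase-promoting complex, a ubiquitin ligase, ends mitosis, and the 4 members around it gave both the lowest median of the role groups, -1.49, and the member of opposite sign. Ube2c, the ubiquitin-conjugating enzyme of the complex, had 24.1, 49.2 and 54.4 CPM in the GFP-positive and 49.6, 154 and 164 CPM in the GFP-negative gate. Cdc20, its mitotic activator, had 24.1, 19.3 and 31.3 CPM in the GFP-positive and 22.7, 77.3 and 105 CPM in the GFP-negative gate. Cdca3, a substrate of the complex that promotes mitotic entry, had 5.54, 8.97 and 17.5 CPM in the GFP-positive and 13, 36.2 and 67.5 CPM in the GFP-negative gate. In all 3, GFP-negative replicate 1 overlapped the GFP-positive range while GFP-negative replicates 2 and 3 lay above it, and the log2 fold changes were -1.53, -1.45 and -1.85. Pttg1, whose product securin blocks separase until anaphase, had 155, 107 and 110 CPM in the GFP-positive and 129, 99.6 and 74.3 CPM in the GFP-negative gate. GFP-negative replicate 3, the highest library for most members, was the lowest for Pttg1. Its log2 fold change was 0.29 ± 0.22 (SE; edgeR adjusted p = 0.713), and it stayed between 0.092 and 0.51 in all 15 alternative settings, past the threshold in none.

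Centromere and kinetochore genes were all negative, 7 of 7, with a median of -1.23, and 4 were lower at an unadjusted p below 0.05. Cenpa, the histone H3 variant that marks centromeres, had 114, 92.7 and 76.0 CPM in the GFP-positive and 120, 185 and 208 CPM in the GFP-negative gate (log2 fold change -0.86 ± 0.22; edgeR adjusted p = 0.159). Cenpf, which encodes a large coiled-coil protein of the outer kinetochore, had 16.5, 13.6 and 11.9 CPM in the GFP-positive and 17.3, 31.6 and 59.2 CPM in the GFP-negative gate. The gates did not overlap in either gene, though only by a small margin against GFP-negative replicate 1. Cenpe, a kinetochore motor, had 7.62, 21.4 and 13.9 CPM in the GFP-positive and 21.1, 35.7 and 45.2 CPM in the GFP-negative gate. Spc25, a subunit of the microtubule-binding NDC80 complex, had 10, 22.8 and 27.7 CPM in the GFP-positive and 25.0, 46.4 and 47.8 CPM in the GFP-negative gate. In both, a GFP-positive library reached the level of GFP-negative replicate 1. The other NDC80 subunits, which bind as a single complex, had log2 fold changes of -0.34 ± 0.34 for Ndc80, -1.23 ± 1.16 for Nuf2 and -1.24 ± 0.70 for Spc24. Nuf2 had no count in GFP-positive replicate 1, where 3 counts would be 0.52 CPM, while replicates 2 and 3 of that gate stood at 11.3 and 9.47 CPM and the GFP-negative libraries at 11.2 to 18.6 CPM.

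Mitotic kinesins move chromosomes and slide spindle microtubules. All 8 were negative, with a median of -1.15, 5 were lower at an unadjusted p below 0.05 and 4 did not overlap. Kif15, which helps to hold the spindle bipolar, had 20.6, 16.8 and 28.4 CPM in the GFP-positive and 38.4, 39.3 and 57.9 CPM in the GFP-negative gate (log2 fold change -1.04 ± 0.28; edgeR adjusted p = 0.202). Kif20a, which brings the passenger complex to the central spindle, had 5.37, 12.6 and 15.3 CPM in the GFP-positive and 18.4, 29.1 and 40.8 CPM in the GFP-negative gate. Kif22, which pushes chromosome arms outward, had 6.93, 20.5 and 19.5 CPM in the GFP-positive and 23.3, 40.9 and 46.0 CPM in the GFP-negative gate. All GFP-positive libraries lay below all GFP-negative ones for these 3 genes and for Kif4, a motor that binds chromosome arms (log2 fold change -1.11 ± 0.44). Kif2c, which takes microtubules apart at kinetochores, had 1.21, 5.98 and 3.3 CPM in the GFP-positive and 3.3, 17.5 and 17.1 CPM in the GFP-negative gate. Kif11, which drives the spindle poles apart, had a log2 fold change of -1.19 ± 0.67, Kif23, a motor of the central spindle, -0.70 ± 0.46, and Kif20b, a motor of the midbody, -0.26 ± 0.33, all with overlapping gates.

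Spindle assembly factors were negative in 3 of 3, with a median of -1.11. Hmmr, whose product binds spindle microtubules, had 14.4, 8.05 and 14.8 CPM in the GFP-positive and 18.6, 46.6 and 59.4 CPM in the GFP-negative gate, with no overlap (log2 fold change -1.73 ± 0.41; edgeR adjusted p = 0.146). Nusap1, which bundles spindle microtubules, had 32.2, 27.1 and 31.0 CPM in the GFP-positive and 30.0, 59.3 and 106 CPM in the GFP-negative gate. Tpx2, which activates Aurora A at the spindle, had 9.01, 29.4 and 17.5 CPM in the GFP-positive and 16.1, 33.4 and 69.7 CPM in the GFP-negative gate. Both overlapped at GFP-negative replicate 1.

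The genes of the central spindle and cytokinesis were negative in 4 of 4, with a median of -1.24, and 3 of them did not overlap. Anln, which encodes anillin, the scaffold of the contractile ring, had 4.68, 2.30 and 1.86 CPM in the GFP-positive and 16.1, 15.5 and 12.9 CPM in the GFP-negative gate. The gates were far apart and even GFP-negative replicate 1 was high, which set Anln apart from most members. Its log2 fold change of -2.32 ± 0.52 was the lowest of the group (edgeR adjusted p = 0.118), on 10 to 27 counts in the GFP-positive and 59 to 83 counts in the GFP-negative gate. Prc1, which ties antiparallel microtubules together, had 24.6, 12.6 and 19.5 CPM in the GFP-positive and 33.1, 39.8 and 53.7 CPM in the GFP-negative gate. Racgap1, a subunit of centralspindlin, had 44.9, 50.8 and 34.1 CPM in the GFP-positive and 51.4, 72.8 and 109 CPM in the GFP-negative gate. Ect2, the exchange factor that activates RhoA for furrowing, had 3.98, 5.29 and 14.8 CPM in the GFP-positive and 7.75, 19.1 and 34.0 CPM in the GFP-negative gate, where GFP-positive replicate 3 exceeded GFP-negative replicate 1.

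On a scale that corrects for transcript length, the deposited transcript abundances (TPM), the members covered a wide range of levels. Cks2 was the highest, with a mean of 253 TPM in the GFP-positive and 309 TPM in the GFP-negative gate, followed by Pttg1 with 175 and 148 TPM in the same order of gates. Cks1b came next, at 83.3 TPM in the GFP-positive and 233 TPM in the GFP-negative gate. Anln was the lowest, at 0.929 TPM in the GFP-positive and 4.77 TPM in the GFP-negative gate. The members together held 1367 ± 112 TPM in the GFP-positive and 2612 ± 938 TPM in the GFP-negative gate (SD; n = 3 per gate).

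Summed over the group, the members held 0.156%, 0.185% and 0.181% of all counts in GFP-positive replicates 1 to 3, against 0.207%, 0.350% and 0.447% in GFP-negative replicates 1 to 3. The GFP-positive libraries were alike and the GFP-negative ones were spread out, and the gates did not overlap. The means were 0.174% ± 0.0159 in the GFP-positive and 0.335% ± 0.12 in the GFP-negative gate (SD; n = 3 per gate), a ratio of 0.519. The 36 listed genes of G1/S and DNA replication, which act earlier in the cycle, held 0.139%, 0.159% and 0.146% in the GFP-positive and 0.165%, 0.269% and 0.313% in the GFP-negative gate, a ratio of means of 0.593. The sum of the members divided by the sum of the G1/S genes lay between 1.12 and 1.24 in the GFP-positive and between 1.25 and 1.43 in the GFP-negative gate. These ratios did not overlap, although GFP-positive replicate 3 and GFP-negative replicate 1 nearly touched, and no test was made of them.

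**Figure D3:**
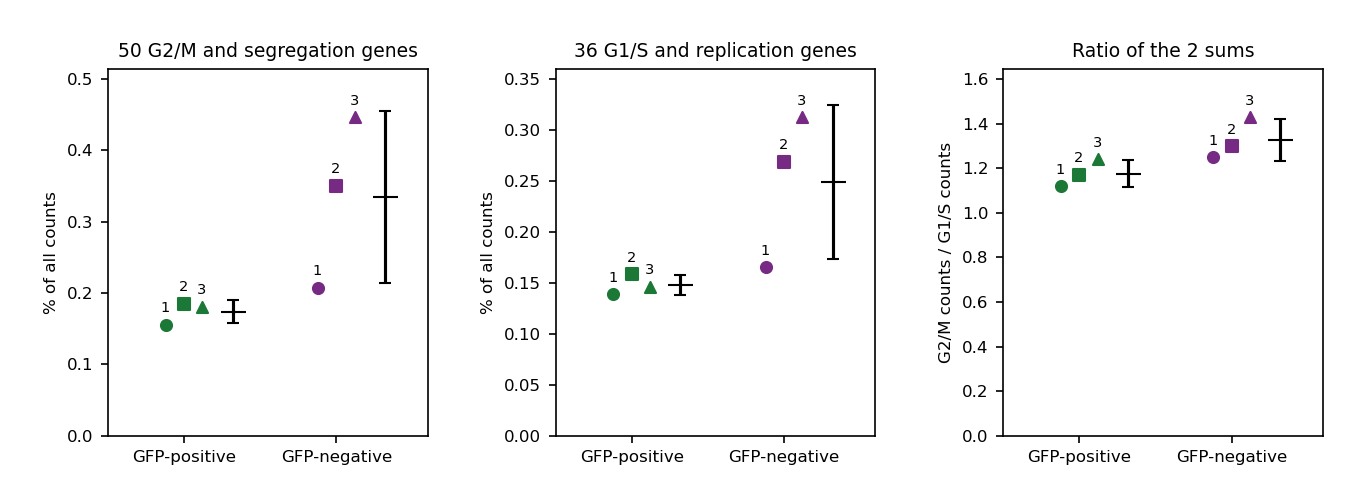
Percent of all counts held by the 50 members (left) and by the 36 G1/S and DNA replication genes (middle), and the ratio of both sums (right), in each library, with replicate numbers beside the points and bars giving the mean and SD of 3 libraries. GFP-positive libraries lie between 0.156% and 0.185% on the left, and GFP-negative ones between 0.207% and 0.447%.

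The difference between the gates was uneven across libraries. GFP-negative replicate 1 was the lowest of its gate for 48 of 50 members, and GFP-negative replicate 3 was the highest of its gate for 42 and the highest of all 6 libraries for 41. GFP-positive replicate 1 was the lowest of its gate for 36 members and the lowest of all 6 libraries for 33. GFP-positive replicate 3 was the highest of its gate for 26. With the members compared library by library, GFP-positive replicates 1, 2 and 3 stood at median log2 differences of -0.80, -0.16 and -0.12 from GFP-negative replicate 1, with 42, 32 and 27 of 50 members lower. Against GFP-negative replicate 2 the same libraries stood at -1.64, -1.05 and -0.97, with 49, 48 and 47 members lower. Against GFP-negative replicate 3 they stood at -2.07, -1.36 and -1.46, with 49, 49 and 48 members lower. Within the GFP-negative gate, replicate 3 exceeded replicate 1 by a median of 1.24 and replicate 2 exceeded replicate 1 by 0.87, so that libraries of this gate differed among themselves by as much as the median between the gates. Within the GFP-positive gate the largest such median was 0.52. Over all tested genes the medians of all 15 pairs lay within 0.02 of 0. The coefficient of variation of the members had a median of 29.7% in the GFP-positive and 42.4% in the GFP-negative gate, with Bub3 the steadiest, at 3.18% and 7.56% in the same order, and Ttk the most variable, at 98.6% and 132%.

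**Figure D4:**
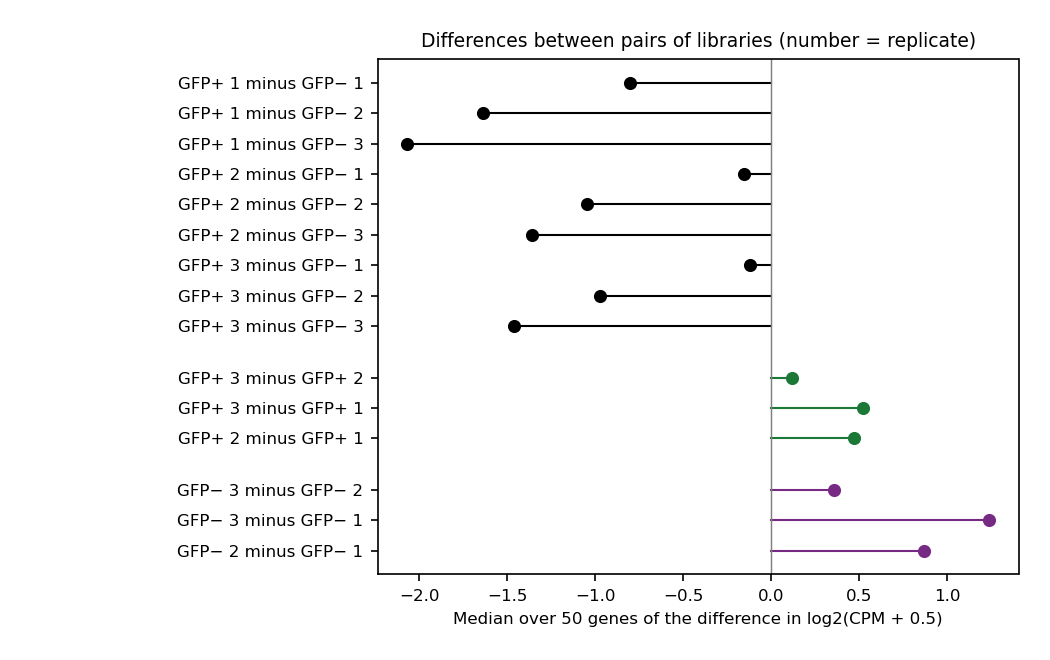
Median over the 50 members of the difference in log2(CPM + 0.5) for each pair of libraries, between the gates (black), within the GFP-positive gate (green) and within the GFP-negative gate (purple). The pairs with GFP-negative replicate 1 lie closest to 0 among those between gates (medians of -0.80, -0.16 and -0.12), and replicate 3 against replicate 1 of the GFP-negative gate has a median of 1.24.

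Genes around the members were counted from lists drawn up by function. Beside these counts, 48.4% of all tested genes were negative and 5.97% were lower at an unadjusted edgeR p below 0.05. For 8.8% all GFP-positive libraries lay below all GFP-negative ones. Of 36 other spindle and cytokinesis genes, 35 were negative, with a median log2 fold change of -1.17, and 18 were lower at an unadjusted p below 0.05. Without GFP-positive replicate 3 the median of this list was -1.47, with 24 lower, where 7.56% of all genes were. Without GFP-negative replicate 3 its median was -0.85, with 7 lower, where 3.71% of all genes were. Cep55, which acts at abscission, had 3.64, 7.13 and 1.29 CPM in the GFP-positive and 14, 24.1 and 37.5 CPM in the GFP-negative gate, with no overlap (log2 fold change -2.67 ± 0.59; edgeR adjusted p = 0.118). Cdca2, which targets a phosphatase to chromatin, and Arhgap11a, a regulator of RhoA, had log2 fold changes of -1.68 ± 0.43 and -1.45 ± 0.41. All 3 genes of condensin II, the sister complex of condensin I, were negative without overlap, at -1.22 ± 0.32 for Ncapg2, -0.80 ± 0.19 for Ncapd3 and -0.39 ± 0.16 for Ncaph2. None of these passed the test over all genes.

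Of the genes that act before mitosis, 33 of 35 tested genes of G1/S and DNA replication were negative, with a median of -0.86 (-0.98 without GFP-positive replicate 3), and 21 were lower at an unadjusted p below 0.05. Fen1 did not pass the filter with all libraries. Without GFP-negative replicate 3 the median was -0.64, and 10 of 36 tested genes were lower, where 3.71% of all genes were. Tyms, thymidylate synthase, averaged 37.9 ± 3.92 CPM in the GFP-positive and 88.6 ± 27.7 CPM in the GFP-negative gate (SD, n = 3 per gate; edgeR adjusted p = 0.107). Mcm6, a subunit of the replicative helicase, and Cdc6, which loads it, had log2 fold changes of -0.75 ± 0.16 and -1.81 ± 0.40. All GFP-positive libraries lay below all GFP-negative ones for these 3 genes.

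Other complexes of chromosome segregation had medians nearer to 0. Without GFP-positive replicate 3 the medians were -0.014 for the anaphase-promoting complex and -0.22 for cohesin and its release. They were then -0.60 for the inner kinetochore and -0.65 for the other outer kinetochore and checkpoint genes. Without GFP-negative replicate 3 the medians were -0.042, -0.19, -0.41 and -0.27 in the same order. Of 17 subunits and cofactors of the anaphase-promoting complex, 11 were negative with a median of -0.099, and the listed genes with the smallest p were the catalytic subunit gene Anapc2 (-0.52 ± 0.17), the activator gene Fzr1 (-0.44 ± 0.18) and the conjugating enzyme gene Ube2s (-0.42 ± 0.20). Of 16 genes of cohesin and its release, 11 were negative, with a median of -0.26. Among them Cdca5, which encodes sororin, had -2.15 ± 0.57, the acetyltransferase gene Esco2 -1.25 ± 0.52 and the cohesin subunit gene Rad21 -0.70 ± 0.21. Of 19 inner kinetochore genes, 17 were negative, with a median of -0.57, and 3 were lower at an unadjusted p below 0.05. Among them Cenpc1, whose product binds the centromeric histone, had -0.87 ± 0.32 and Mis18a, which helps to load it, -0.57 ± 0.22. Of 17 other outer kinetochore and checkpoint genes, 12 were negative, with a median of -0.43. Knl1, the scaffold of the outer kinetochore, had -1.20 ± 0.40, Trip13, an ATPase that recycles MAD2, had -3.11 ± 1.11 and Ska3, a microtubule-binding subunit, had -2.16 ± 0.96, and all 3 overlapped between the gates.

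Of 20 genes listed as B-MYB, FOXM1 and DREAM regulators, 17 were negative, with a median of -0.41, and 6 were lower at an unadjusted p below 0.05. E2f4, the main E2F of DREAM, averaged 52.2 ± 7.87 CPM in the GFP-positive and 90.9 ± 13.2 CPM in the GFP-negative gate (SD, n = 3 per gate; edgeR adjusted p = 0.149). E2f8 and E2f7, repressive E2F genes that are themselves induced in cycling cells, had log2 fold changes of -2.27 ± 0.78 and -1.30 ± 0.55. Of 12 genes of the CDK1 switch, which sets when the kinase is active, 7 were negative with a median of -0.24. In that list Ppp1cc, a catalytic subunit of protein phosphatase 1, passed the test over all genes and fell, with 53.7, 58.6 and 58.8 CPM in the GFP-positive and 128, 153 and 98.5 CPM in the GFP-negative gate (log2 fold change -1.15 ± 0.19; edgeR adjusted p = 0.0382). Its edgeR adjusted p was 0.0456 without GFP-positive replicate 3 and 0.0705 to 0.312 without each of the other libraries, so that 5 of 6 such fits did not pass it. Cdc25c, a phosphatase that activates CDK1, had -1.76 ± 0.67 and Ccnf, which encodes cyclin F, had -1.80 ± 1.10 with no count in GFP-positive replicate 2.

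Of 16 tested quiescence and CDK inhibitor genes, which hold cells out of the cycle, 10 were negative, with a median of -0.19, and Cdkn1c and Cdkn2a did not pass the filter. Rb1, which encodes the retinoblastoma protein, averaged 21.9 ± 1.58 CPM in the GFP-positive and 51.4 ± 13.2 CPM in the GFP-negative gate (SD, n = 3 per gate; edgeR adjusted p = 0.107). Ccng2, a cyclin of arrested cells, had a log2 fold change of -0.88 ± 0.20 and Cdkn2c, an inhibitor of CDK4 and CDK6, -1.22 ± 0.37. In the list of D cyclins and G1 kinases, 5 of 6 tested genes were negative, with a median of -0.14, and Ccnd1 did not pass the filter. Myc, the growth regulator in that list, averaged 120.5 ± 9.35 CPM in the GFP-positive and 86.5 ± 8.4 CPM in the GFP-negative gate (SD; n = 3 per gate), with every GFP-positive library above every GFP-negative one (log2 fold change 0.48 ± 0.16; edgeR adjusted p = 0.294). Cdk2 and Cdk4 had log2 fold changes of -0.70 ± 0.33 and -0.26 ± 0.15 with overlapping gates.

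**Figure D5:**
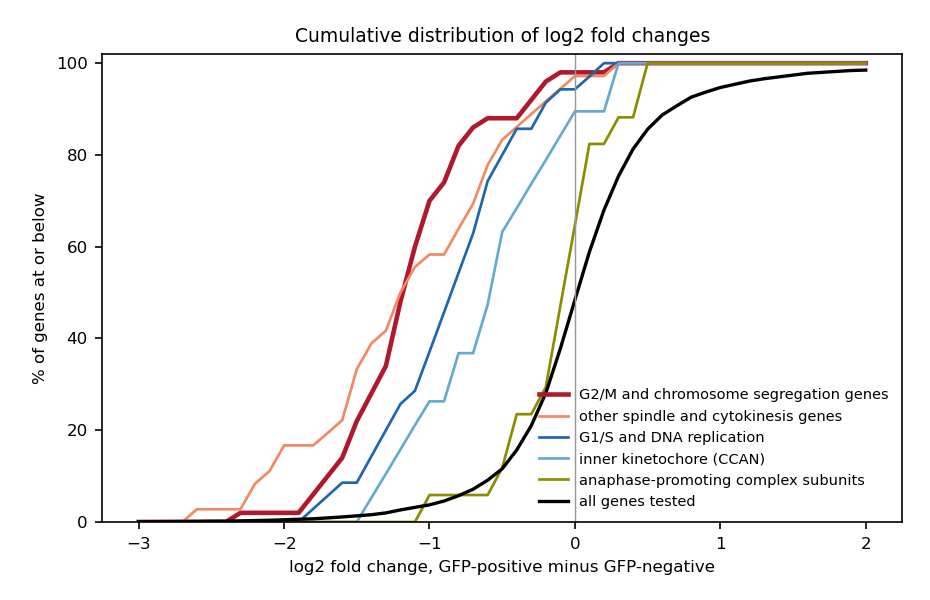
Cumulative share of genes, in percent, at or below each log2 fold change (GFP-positive minus GFP-negative), for the 50 members, 4 other lists and all 11074 tested genes. The members and the other spindle and cytokinesis genes lie furthest to the left, each with a median of -1.17, the subunits of the anaphase-promoting complex have a median of -0.099, and all tested genes have 0.016.

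Some member counts may include reads of other genes, because the library protocol does not record the strand. Exons of 11 members overlap exons of a gene on the opposite strand, namely Ncapg with Lcorl, Ccna2 with Exosc9, Plk1 with Gm44985, Cdca8 with 9930104L06Rik, Cdc20 with Elovl1, Ube2c with Tnnc2, Kif20a with Cdc23, Kif22 with Gm31749, Kif4 with Pdzd11, Nusap1 with Oip5 and Prc1 with Rccd1. Processed copies of Ccnb1, Cks2 and Mad2l1 exist in the annotation and held 0 to 5 counts per library. How reads were shared between such genes is not given in the sources used here.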

How the data were processed

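Bulk RNA-seq was measured in 3 GFP-positive and 3 GFP-negative libraries, grouped by the sample titles. Per the labels' protocols, cDNA was primed with oligo-dT and random hexamers, amplified, and tagged with a transposase-based kit that records no strand and no molecular identifiers, so floors cover counting error only. Per the submitters' processing notes, the tools were STAR 2.7.10b, fastp 0.23.3, deepTools 3.5.1 and SAMtools 1.17, on the mm10 build. The sources used here name neither the read counter nor the annotation. The authors deposited raw counts per gene (4309500 to 7462076 per library) and a TPM table, which lacks genes holding 3.65% to 7.82% of counts.

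The deposited counts were tested with edgeR 4.0.16 (R 4.3.3; TMM factors, default expression filter with a minimum count of 10, robust quasi-likelihood F-test, group as the only term), Benjamini-Hochberg adjustment over 11074 genes and a threshold of 0.05. CPM values refer to the TMM-scaled total of tested genes. SE values were derived from the fold change and F. Lists were described by counts and medians, with no test over a list. Gene positions are those of GENCODE M21 and promoters those of RefSeq. Copies of members were sought with BLAST 2.17.0 (at least 95% identity over 200 bases). Alternatives were RLE factors, library size alone, other filters, DESeq2 1.42.0, limma-voom (limma 3.58.1), limma on deposited TPM as log2(TPM + 1) or log2(TPM + 0.1), a replicate block, and leaving out each library. Counts of replicate libraries differed by more than sampling noise, with a chi-square of at least 11.4 per degree of freedom.

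The members and lists were chosen with earlier results of these data known. Values of every library are printed for Mki67, Top2a, Ccnb1, Cdk1, Aurkb, Plk1, Birc5, up to 4 members per role with the smallest p and any member with a positive fold change, and 3 genes per other list and 2 per marker list are named, apart from a gene not reported here.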

Additional observations from a re-analysis of the deposited data

How the results depend on the processing

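Under the 15 alternatives the members with a negative log2 fold change numbered 48 or 49 of 50. Ttk turned to 0.27 without GFP-negative replicate 3 and lay between -2.85 and 0.27 over the libraries left out, and no other member changed sign under any of them. The median of the members ran from -1.48 (without GFP-negative replicate 1) to -0.816 (without GFP-negative replicate 3). The 12 genes that passed over all genes became 19 with library size alone, 156 with DESeq2, 373 without a filter, 1 with log2(TPM + 1), 0 with log2(TPM + 0.1), and 0 to 42 with a library left out. The 0 members that passed became 12 with DESeq2 and 26 without a filter. The number stayed at 0 with each library left out, with RLE factors and with library size alone. It was also 0 on TPM and with limma-voom, where 0.163% of genes passed. Under a looser expression cutoff, which kept 12300 genes instead of 11074, it was 0 too, where 0.0894% of genes passed. The cause of these changes was not tested. The 19 members without overlap were 28 on TPM (all lower, as were 9.17% of genes) and 20 to 47 with a library left out, where fewer libraries are compared. The 47, without GFP-negative replicate 1, were 46 lower and Pttg1 higher, and 12.1% to 15.2% of all genes were lower without overlap in such fits. The labels do not pair the replicate numbers. Deviations of same-numbered libraries from their gate means correlated across genes at 0.104, 0.0971 and 0.104 (0.0945 to 0.0998 with a prior count of 1, 0.102 to 0.11 with 5), and every library correlated best with its own number, a hint from the data and not the design. With the replicate block 81 genes (0.731%) and 11 members passed, namely Mki67, Top2a, Ncapg, Ccna2, Ccnb2, Cks1b, Aurkb, Birc5, Mad2l1, Ube2c and Cdca3. Depth limits the weakest members, as 3 counts equal 0.43 to 0.69 CPM.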
